A study of Mus musculus with 12 samples.

Results

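Lepr, the mouse leptin receptor gene (ENSMUSG00000057722.18, chromosome 4, plus strand), is described here across 12 liver RNA-seq libraries. It is 1 of the 56065 genes quantified, and its 7 listed transcripts were taken by gene symbol and summed. The gene was chosen by its measured read counts in these libraries, known from earlier to be low in both groups on the steatohepatitis diet, so its levels and its differences between groups are given as a description, with no test. All mice were AhR-floxed (loxP sites around the aryl hydrocarbon receptor gene, with no Cre named in the labels), labelled male, and 8 weeks old when the diets began; the diets lasted 20 weeks. The MD+CA group ate a diet rich in fat (40 kcal%), fructose (20 kcal%) and cholesterol (2%) and received cinnabarinic acid, a tryptophan metabolite, at 12 mg/kg by intraperitoneal injection 3 times a week in 0.2% DMSO. The MD group ate the same diet and was injected with vehicle. The CD group ate a low-fat diet (10 kcal% from fat, with sucrose to match); no injection is stated for it. Each group had 4 libraries, and the labels do not say whether these came from separate mice, so any p-value measures the spread between libraries.

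Leptin is a hormone of fat cells that reports stored energy to the brain, where its receptor acts on feeding. The receptor is a class I cytokine receptor with no kinase of its own. It binds the kinase JAK2, which phosphorylates tyrosines of the receptor's long form and so recruits transcription factors such as STAT3. Alternative last exons give receptor forms with the same outer part and different inner tails. The short forms lack the STAT3 docking tyrosine, and liver is known for expressing mainly short forms. A soluble form carries leptin in the blood.

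The 3 main protein-coding transcripts differed only after their first 3222 bases. Lepr-203 has 5542 bases, 19 exons and an open reading frame of 894 codons, the length of the short form Ob-Ra. Lepr-201 has 4127 bases, 19 exons and 1162 codons, the length of the long form Ob-Rb. Lepr-202 has 3410 bases, 18 exons and 892 codons, the length of the short form Ob-Rc. Before the stop codon the coding bases that each does not share number 15 in Lepr-203, 819 in Lepr-201 and 9 in Lepr-202. The place where the 3 tails part shows what separates them. In the lines below, from GENCODE M21 (GRCm38), lower case marks the last 24 shared bases and capitals mark the first bases of each tail, up to and including the stop codon in both short forms.
Lepr-203: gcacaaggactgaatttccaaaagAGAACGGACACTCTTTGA
Lepr-201: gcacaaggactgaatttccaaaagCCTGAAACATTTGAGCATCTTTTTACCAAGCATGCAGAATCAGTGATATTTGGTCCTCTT
Lepr-202: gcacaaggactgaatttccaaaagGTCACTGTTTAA
The long tail of Lepr-201 adds 273 amino acids with 3 tyrosines. The last of them, tyrosine 1138, is the only one followed by the STAT3 docking pattern (tyrosine, any residue, any residue, glutamine). Its codons are in capitals in the last 93 coding bases of Lepr-201:
Lepr-201: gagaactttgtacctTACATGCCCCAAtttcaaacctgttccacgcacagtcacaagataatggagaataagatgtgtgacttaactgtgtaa
A read from the shared 3222 bases cannot by itself be placed on 1 of the 3 transcripts. The bases after this part make up 41.9% of Lepr-203, 21.9% of Lepr-201 and 5.51% of Lepr-202. Whether any of them also occur in another Lepr transcript was not checked. By this measure alone, the estimated division of reads is best founded for Lepr-203 and least for Lepr-202. No listed transcript was identified as the secreted form Ob-Re. Reads of that form, if present, could be assigned to listed transcripts that share its bases. The shares below therefore do not separate it from the membrane forms.

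**Figure D1:**
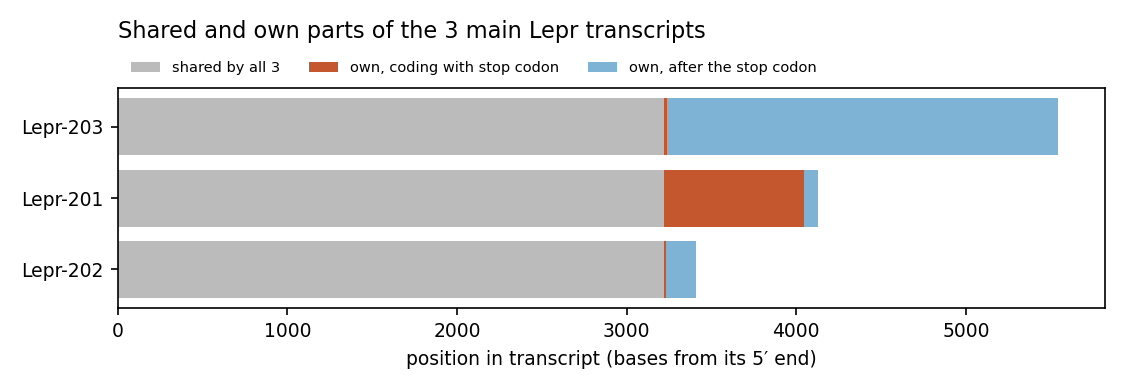
Length of the 3 main Lepr transcripts in bases, with the part shared by all 3 in grey, the transcript's own coding bases with the stop codon in red and its own bases after the stop codon in blue. The shared part spans 3222 bases, and Lepr-201 holds 819 of its own coding bases, against 15 in Lepr-203 and 9 in Lepr-202.

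The gene's start lies downstream of Leprot, which encodes a small membrane protein known to hold leptin receptors back from the cell surface. Since levels of both neighbours are compared below, a start window of each is shown from RefSeq (GRCm38.p6; both genes matched). Each window runs from 250 bases before to 50 bases after an annotated start. Capitals mark matches to GGGCGG, the core of the GC box, on either strand. The Lepr window is chr4:101717157-101717456 and the Leprot window is chr4:101647533-101647832, both on the plus strand.
Lepr: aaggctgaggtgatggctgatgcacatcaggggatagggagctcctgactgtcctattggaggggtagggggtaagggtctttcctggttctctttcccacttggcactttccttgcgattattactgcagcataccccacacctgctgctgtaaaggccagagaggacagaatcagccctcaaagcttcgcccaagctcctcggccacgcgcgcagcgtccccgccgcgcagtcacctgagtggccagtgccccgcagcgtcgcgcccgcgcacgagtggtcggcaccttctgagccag
Leprot: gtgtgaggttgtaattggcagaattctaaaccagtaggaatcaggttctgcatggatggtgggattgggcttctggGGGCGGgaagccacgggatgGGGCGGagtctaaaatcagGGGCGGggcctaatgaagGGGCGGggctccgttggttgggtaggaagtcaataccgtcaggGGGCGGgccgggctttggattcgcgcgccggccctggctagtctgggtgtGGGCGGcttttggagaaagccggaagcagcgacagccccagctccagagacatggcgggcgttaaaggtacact
GGGCGG was found in 6 places in the Leprot window and in none in this Lepr window, and 35.7% of 32851 RefSeq windows of the same length hold it. A further annotated Lepr start, at chr4:101717656-101717955, had 1 match. GC content was 61.3% in the first Lepr window, 54.3% in the second and 60.7% in the Leprot window. Neither gene's windows held CACGTG (in 7.15% of all windows), TGACGTCA (1.79%), TATAAA (13.6%) or the STAT pattern TTCNNNGAA (8.30%), read on both strands and with no overlap between motifs. The submitters' processing notes name GRCm39, so these positions are not those of the quantified reference.

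Total reads assigned to transcripts were 9089586 to 14492587 per library. Mitochondrially encoded genes took 4.98% to 7.94% of reads in MD+CA, 6.16% to 17.5% in MD and 5.72% to 6.63% in CD, and the highest value was that of MD library 2. Hepatocyte markers defined the tissue: 10 of 10 were detected in each group, and their summed level was 52022 to 70234 CPM in MD+CA, 39585 to 68598 CPM in MD and 59719 to 76661 CPM in CD. All 12 libraries went against the label male: Xist, expressed from the inactive X chromosome, had 5122 to 12865 reads in each, and the Y-linked genes Ddx3y, Kdm5d, Uty and Eif2s3y had 0. No result here compares sexes, and every group is alike in this.

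Lepr was lowest in MD+CA, higher in MD and highest in CD. In MD+CA the 4 libraries had 21, 14, 81 and 83 Lepr reads. In MD they had 185, 98, 151 and 65 reads. In CD they had 562, 279, 637 and 1156 reads. Every MD+CA and MD library was below every CD library, whereas MD+CA and MD overlapped: 2 MD+CA libraries were below all MD libraries and the other 2 lay within the MD range. In library-scaled counts (TMM-scaled CPM), the levels were 1.93, 1.15, 10.3 and 7.18 in MD+CA, 13.0, 9.98, 11.3 and 5.17 in MD, and 38.0, 28.3, 57.0 and 80.4 in CD. The group means were 5.13 ± 4.34 CPM in MD+CA, 9.86 ± 3.36 CPM in MD and 50.9 ± 23.0 CPM in CD (SD, n = 4 each). The lowest library, MD+CA 2, had an exact 95% Poisson interval of 7.65 to 23.5 reads, which covers counting error only. The highest library exceeded the lowest 8.95-fold within MD+CA, 2.51-fold within MD and 2.84-fold within CD.

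Summed TPM, which allows for transcript length, gave the same order of groups: 1.51 ± 1.06 in MD+CA, 2.63 ± 0.548 in MD and 14.8 ± 6.60 in CD (SD, n = 4 each). The lowest CD library had 6.77 TPM, against highest values of 2.70 TPM in MD+CA and 3.0 TPM in MD. In whole liver, fewer cells that express Lepr and less Lepr RNA per cell cannot be told apart.

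**Figure D2:**
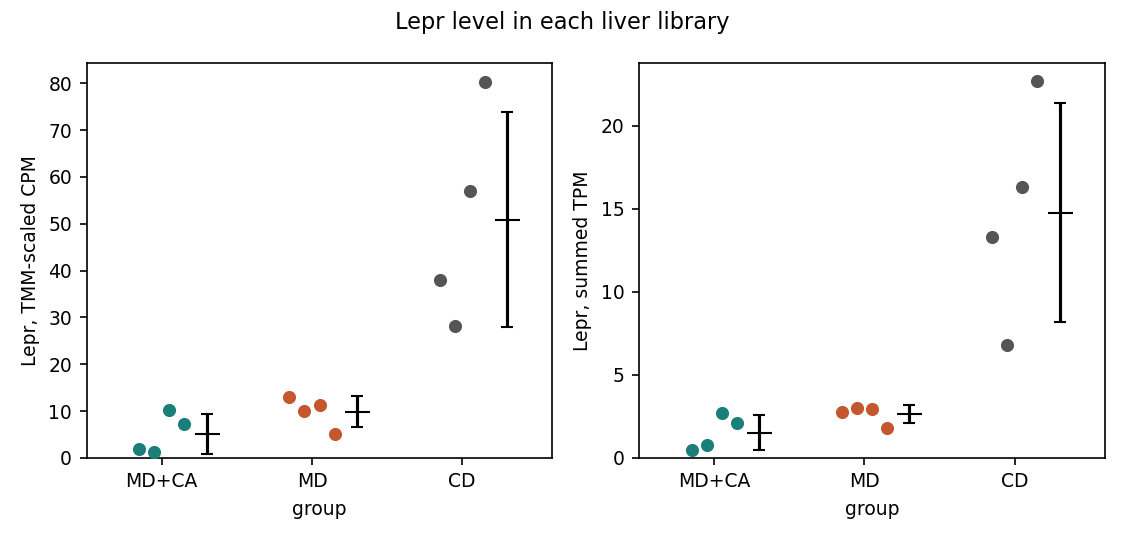
Lepr level in each library as TMM-scaled CPM (left) and summed TPM (right), for MD+CA, MD and CD; dots are libraries, bars show mean ± SD (n = 4 each). The 4 CD libraries lie at 28.3 to 80.4 CPM, above all MD+CA and MD libraries, which lie between 1.15 and 13.0 CPM.

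As fitted across all 12 libraries, Lepr was 5.15-fold lower in MD than in CD (log2 fold change -2.37, SE 0.52). Of 13631 genes tested, 23 had a lower log2 fold change, and the median over all genes was 0.04. A complete separation of the 4 MD from the 4 CD libraries in the lower direction was seen in 7.12% of genes, and a decrease of at least 2-fold in 2.15%. In MD+CA, Lepr was 10.1-fold lower than in CD (log2 -3.34, SE 0.55), with 11 genes lower and a median of 0.02. Complete separation in that direction was seen in 2.92% of genes in that comparison, and a decrease of at least 2-fold in 1.93%. These 2 comparisons share the CD libraries. They are the contrasts by which the gene was chosen, so nothing is read from these shares.

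Between MD+CA and MD, Lepr was 1.97-fold lower in MD+CA (log2 -0.98, SE 0.53), and the SE is large beside the difference. In this comparison 775 genes had a lower log2 fold change, which is 5.69% of those tested, and the median was -0.00. Complete separation in the lower direction was seen in 5.21% of genes there, and a decrease of at least 2-fold in 5.33%. Single libraries moved the difference. It was -0.63 without MD+CA library 2, -0.70 without MD+CA library 1 and -1.53 without MD+CA library 3. The neighbours in the order of levels, MD+CA and MD, are therefore not separated beyond their spread.

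Nearly all Lepr reads were assigned to the short-form transcript Lepr-203, in every group. Over the 12 libraries it took 3222.7 estimated reads, or 96.7% of the total. Its share was 100%, 82.0%, 98.4% and 100% in the MD+CA libraries, 99.4%, 87.2%, 100% and 95.2% in the MD libraries, and 94.3%, 98.95%, 97.03% and 96.99% in the CD libraries. The groups overlapped throughout, with means of 95.1 ± 8.78% in MD+CA, 95.5 ± 5.89% in MD and 96.8 ± 1.92% in CD (SD, n = 4 each). The lowest share, in MD+CA library 2, belonged to the library with 14 Lepr reads, and 3 reads there are 21.4% of the total. With reads pooled per group, the share was 98.1% in MD+CA (exact 95% binomial interval 94.9 to 99.4), 96.6% in MD (94.6 to 98) and 96.6% in CD (95.9 to 97.3). Pooled Lepr-203 was 5.25-fold lower in MD than in CD, 11.0-fold lower in MD+CA than in CD and 2.10-fold lower in MD+CA than in MD, close to the values for the whole gene.

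Lepr-201, the long form with the docking tyrosine shown above, was a minor transcript. It had 0 estimated reads in all 4 MD+CA libraries. In MD it had 1.14, 5.76, 0 and 1.17 reads, and in CD 22.8, 2.93, 6.85 and 22.4 reads. MD library 2 therefore held most of the MD reads, and all 4 CD libraries had some. Its pooled share of Lepr reads was 0% in MD+CA, where 0 of 199 reads gave an exact binomial interval that reaches 1.84%, and where 3 reads would be 1.51%. The share was 1.62% in MD (exact binomial interval 0.695 to 3.13) and 2.09% in CD (1.58 to 2.71). A lower share in MD+CA than in MD was not detectable at this depth. The lower limit in CD lies between both limits for MD+CA, so no difference in share between MD+CA and CD is read from these reads.

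For the level of Lepr-201, MD+CA was set to a floor of 3 reads over the group. On that floor, Lepr-201 was 15.5-fold lower in MD+CA than in CD and 2.29-fold lower than in MD. These 2 folds leave out the counting error of the CD and MD reads, so they are not lower limits. No difference from the folds of Lepr-203 is read from them. Lepr-201 was 6.78-fold lower in MD than in CD. Both values for MD rest on MD library 2. Without it, MD had 2.31 reads, under the floor, so that no fold of MD+CA against MD could be given, and MD was 19.0-fold lower than CD (exact 95% interval of the ratio 5.42 to 130.1, counting error only). Per length, it averaged 0 TPM in MD+CA, 0.0483 ± 0.0670 TPM in MD and 0.316 ± 0.215 TPM in CD, against 1.29 ± 1.07, 2.15 ± 0.839 and 12.7 ± 5.79 TPM for Lepr-203 in the same groups (SD, n = 4 each). The short form thus had the higher level per length in each library that held both.

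The remaining transcripts held little. Lepr-202, the other short form, had 16.6 reads in 4 libraries (0.498% of the total), of which 15.2 were in CD. Lepr-205, a fragment of 208 bases labelled protein coding, had 0 reads in every library. Lepr-206 (415 bases), Lepr-204 (787 bases) and Lepr-207 (889 bases) have no defined coding sequence and took 0.530%, 0.200% and 0.160% of Lepr reads. Together they made 0%, 18.0%, 1.57% and 0% of Lepr reads in the MD+CA libraries, 0%, 5.45%, 0% and 2.97% in MD, and 1.38%, 0%, 0.572% and 0.620% in CD. The high values were the 2.52 reads of MD+CA library 2 and the 5.35 reads of MD library 2, which also had the highest mitochondrial share. In TPM these short transcripts weigh more, and the mean share of Lepr-203 was then 80.0% in MD+CA, 80.4% in MD and 87.2% in CD.

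**Figure D3:**
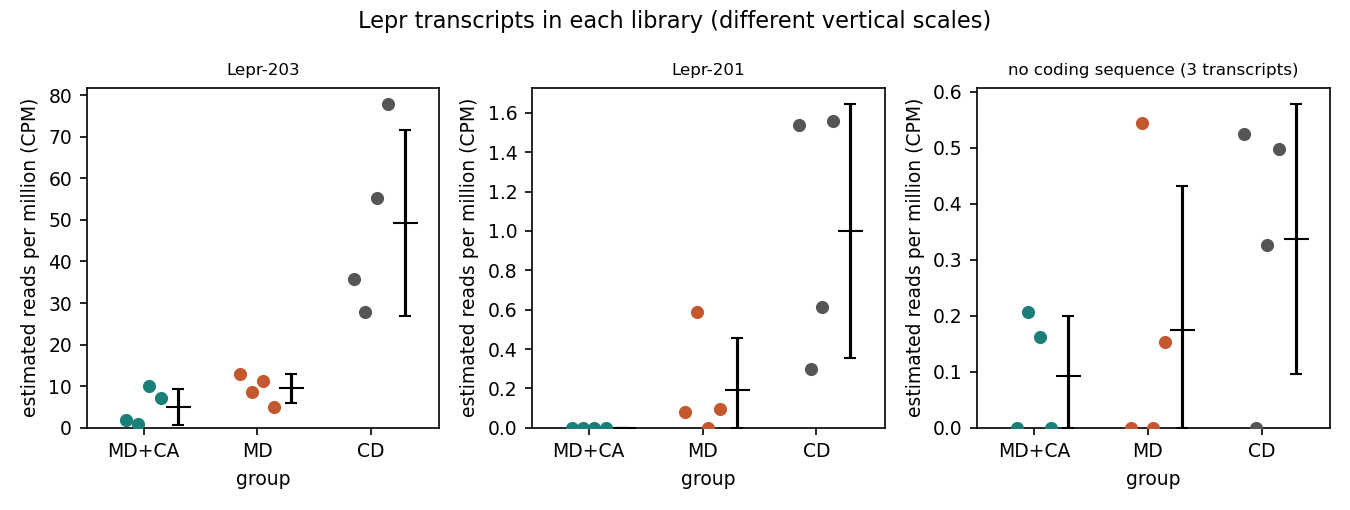
Estimated reads (CPM) of Lepr-203, Lepr-201 and the 3 transcripts without a coding sequence in each library of MD+CA, MD and CD; dots are libraries, bars show mean ± SD cut at 0 (n = 4 each), and each panel has its own vertical scale. Lepr-201 is at 0 in the 4 MD+CA libraries, and the panel of Lepr-203 repeats the pattern of the whole gene.

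The ligand was nearly undetected. Lep, which encodes leptin, had 58 reads in MD+CA library 4 (5.01 CPM), 8 in MD library 3 (0.601 CPM) and 0 in the other libraries, too few for a test. Both libraries with Lep reads also held reads of Adipoq and Plin1. Adipoq (adiponectin) had 82 reads in MD+CA library 4, 20 in MD library 3 and 14 in CD library 4, against 0 to 2 elsewhere. Plin1, a lipid droplet protein of fat cells, had 62, 15 and 11 reads in those 3 libraries. The summed level of the 8 fat cell markers was 339 to 2754 CPM in MD+CA, 1829 to 3057 CPM in MD and 1102 to 1261 CPM in CD, and Lep was at 0 in all CD libraries. This sum did not follow Lep: MD library 3 (1829 CPM) and CD library 4 (1102 CPM) were the lowest of their groups, and MD+CA library 1, with 0 reads of Adipoq and Plin1, was the highest of its group. Car3 (carbonic anhydrase 3) and Fabp4 (a fatty acid binding protein) made 98.2% to 99.9% of it in each library. MD+CA library 4, with the most Lep reads, had 7.18 CPM of Lepr. MD library 3 had 11.3 CPM of Lepr. CD library 4 had 80.4 CPM, the highest of the 12 libraries. The part of fat cell RNA in these values was not tested.

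Leprot differed little while Lepr differed. It had 9.46, 10.5, 9.75 and 6.66 CPM in MD+CA, 11.2, 6.41, 11.6 and 7.96 CPM in MD, and 10.3, 7.90, 9.12 and 12.0 CPM in CD. The 3 groups overlapped fully in this gene. Its log2 fold change was -0.08 in MD vs CD (95% interval -0.53 to 0.37), -0.04 in MD+CA vs MD (-0.49 to 0.42) and -0.12 in MD+CA vs CD (-0.57 to 0.34). No call was made in any comparison (adjusted p = 0.869, 0.941 and 0.941, edgeR's quasi-likelihood test with Benjamini-Hochberg adjustment over all genes).

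The wider leptin pathway was taken as 3 lists with 47 genes besides Lepr, of which 43 were tested. In MD vs CD, 0 of 43 passed an adjusted p of 0.05 by edgeR, where 0.088% of all genes passed. That background was 0.044% in each direction, higher and lower. At an unadjusted p under 0.05, 2 were higher and 8 lower in MD, where 10.5% of all genes were higher and 9.4% lower (19.9% in all). DESeq2 called 4 of the 43, beside 638 of all 13631 genes. The median log2 fold change was -0.09, against 0.04 for all genes. Against MD, 1 of 43 passed in MD+CA, and it was higher, where 2.71% of all genes passed (1.06% higher and 1.64% lower). The median was 0.19 against -0.00, and 7 were higher and 3 lower at an unadjusted p under 0.05, beside 11.6% of all genes each way. In MD+CA vs CD, 0 of 43 passed where 0.528% of all genes did (0.22% higher and 0.308% lower). DESeq2 called 2 there, beside 334 of all genes. At an unadjusted p under 0.05, 3 were higher and 3 lower, beside 6.16% and 4.37% of all genes. The median there was 0.03 against 0.02. The 1 call among 43 is thus a share near the background. DESeq2 called more of all genes than edgeR in each comparison, so the edgeR shares are no background for DESeq2 counts, here and below.

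**Figure D4:**
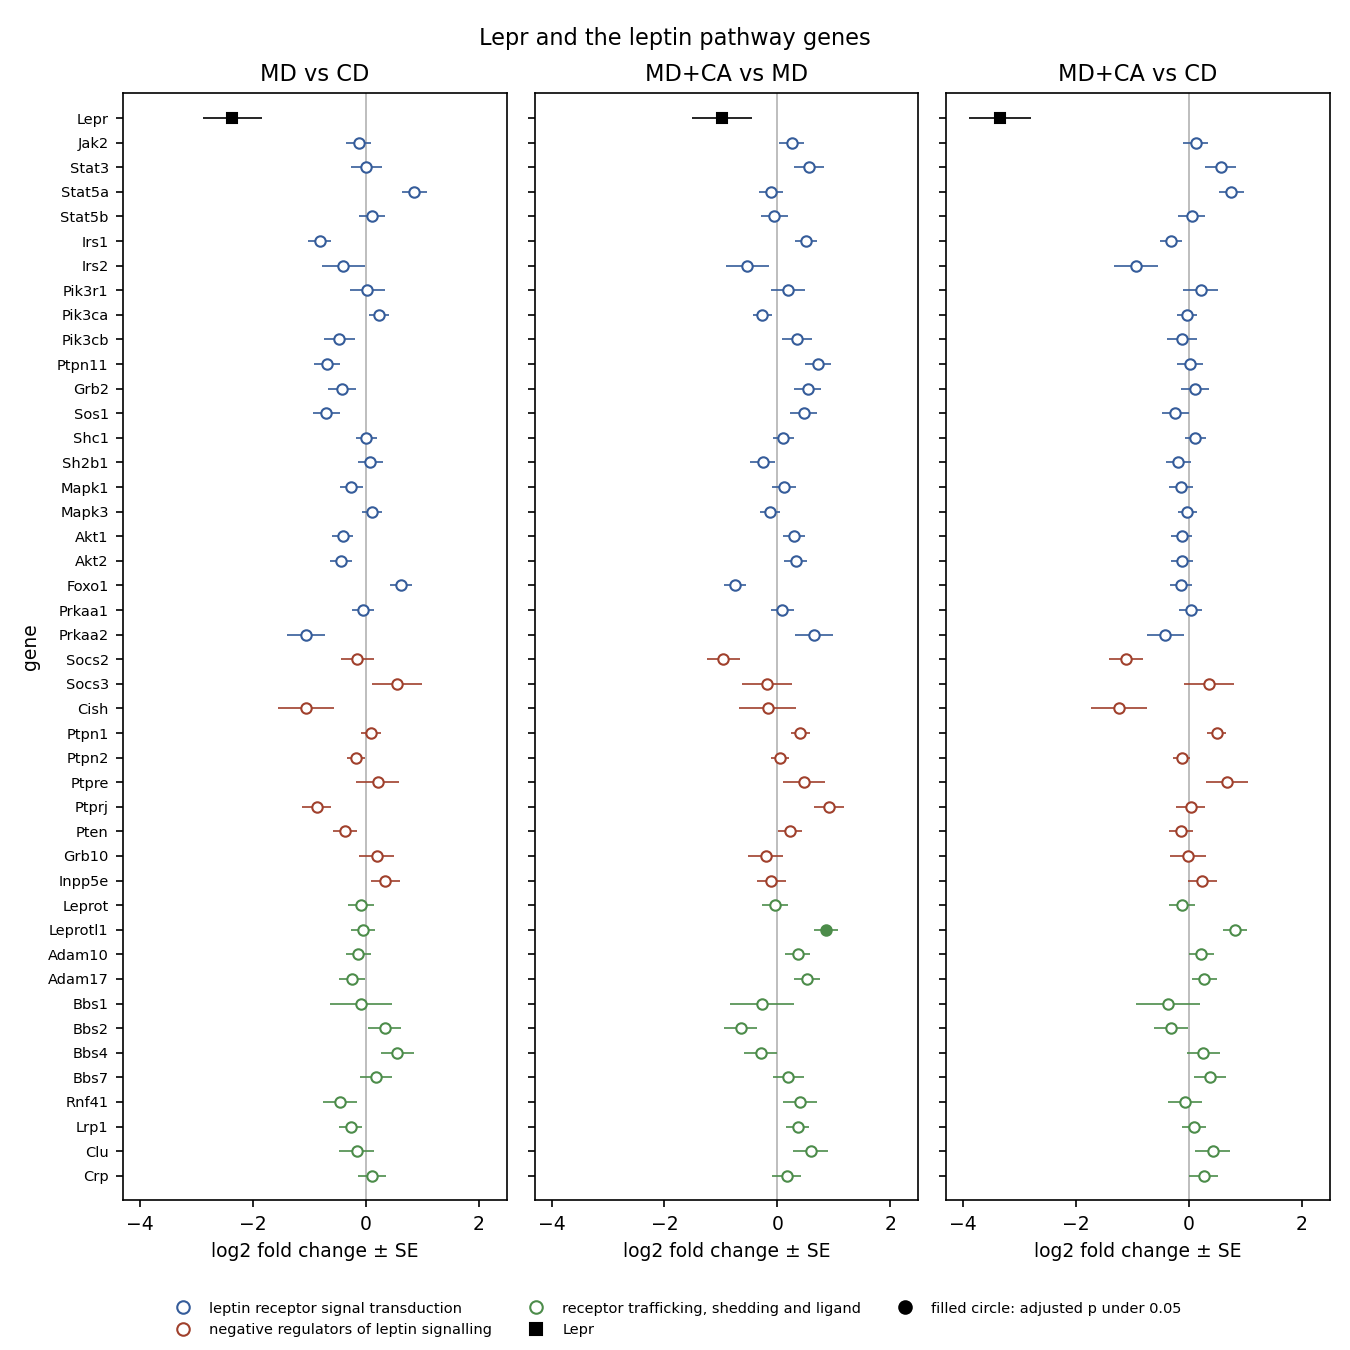
Log2 fold change ± SE of Lepr (black square) and the 43 tested leptin pathway genes in 3 panels (MD vs CD left, MD+CA vs MD middle, MD+CA vs CD right); circles are coloured by list, and a filled circle passed an adjusted p of 0.05. Lepr lies at -2.37, -0.98 and -3.34, and Leprotl1 is the filled circle, in MD+CA vs MD.

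None of the 21 tested genes that pass the signal on was called by edgeR. At an unadjusted p under 0.05, 2 were higher and 6 lower in MD vs CD, beside 10.5% and 9.4% of all genes. In MD+CA vs MD, 3 were higher and 1 lower, beside 11.6% of all genes each way. In MD+CA vs CD, 1 was higher and 1 lower, beside 6.16% and 4.37% of all genes. In all, these were 38.1%, 19.0% and 9.52% of the 21, beside 19.9%, 23.2% and 10.5% of all genes. DESeq2 called 3 in the first of these comparisons, 2 in the second and 0 in the last, beside 638, 1203 and 334 of all 13631 genes. Jak2, the kinase bound to the receptor, averaged 18.0 ± 3.77 CPM in MD+CA, 15.1 ± 2.94 CPM in MD and 16.5 ± 3.65 CPM in CD (SD, n = 4 each). Its log2 fold changes were -0.13 in MD vs CD, 0.26 in MD+CA vs MD and 0.13 in MD+CA vs CD, with none called. Stat3 averaged 54.8 ± 23.3 CPM in MD+CA, 37.0 ± 9.21 CPM in MD and 36.9 ± 4.56 CPM in CD. Its log2 fold change was 0.01 in MD vs CD (95% interval -0.53 to 0.54). It was 0.56 in MD+CA vs MD (0.03 to 1.1) and 0.57 in MD+CA vs CD (0.04 to 1.1). By edgeR, adjusted p was 0.993, 0.227 and 0.489, and unadjusted p was 0.984, 0.0551 and 0.0531. The intervals take the error as normal and are narrower than the test implies, so no difference is read from them. The 2 highest Stat3 libraries of MD+CA, 3 and 4, were the 2 with more Lepr. In CD the order was reversed: library 4, with the most Lepr, had the lowest Stat3 (32.1 CPM). Library 2 of CD, with the least Lepr, had the highest Stat3 (43.0 CPM). In MD, library 2 had the highest Stat3 (47.3 CPM) but not the most Lepr, and library 4 was lowest in both.

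Of the others in this list, Irs1, a docking protein of insulin and leptin signalling, averaged 17.5 ± 3.97 CPM in MD and 30.9 ± 4.21 CPM in CD (log2 -0.82, adjusted p = 0.104, edgeR). Irs1 passed by DESeq2 (adjusted p = 0.00948). All 4 MD libraries were below all CD libraries for Irs1, as for 7.12% of genes. Stat5a averaged 11.0 ± 1.13 CPM in MD and 6.07 ± 1.25 CPM in CD (log2 0.86, adjusted p = 0.111, edgeR), again with no overlap, and higher as for 5.99% of genes. By DESeq2, Stat5a passed in MD vs CD (adjusted p = 0.0235). It had a log2 value of 0.75 in MD+CA vs CD (adjusted p = 0.154), without overlap and higher as for 3.48% of genes. Ptpn11, which encodes the phosphatase SHP2, averaged 49.6 ± 9.52 CPM in MD+CA and 30.1 ± 8.65 CPM in MD. Its log2 value of 0.72 did not pass by edgeR (adjusted p = 0.090) and passed by DESeq2 (adjusted p = 0.039). Irs2, a relative of Irs1, averaged 14.8 ± 7.05 CPM in MD+CA and 28.2 ± 10.6 CPM in CD (log2 -0.93, adjusted p = 0.374). Foxo1, a transcription factor of fasting held back by insulin, averaged 29.4 ± 6.09 CPM in MD+CA, 49.7 ± 8.91 CPM in MD and 32.4 ± 3.01 CPM in CD. MD was above CD without overlap, as for 5.99% of genes, and MD+CA was below MD without overlap, as for 5.21%. Its log2 value of -0.76 in MD+CA vs MD missed the threshold by edgeR (adjusted p = 0.0513) and passed by DESeq2 (adjusted p = 0.0100). That of 0.61 in MD vs CD did not pass (adjusted p = 0.131, edgeR).

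None of the 10 tested genes that damp the signal was called by edgeR. DESeq2 called 1 in MD vs CD, 2 in MD+CA vs MD and 1 in MD+CA vs CD. Of all 13631 genes it called 638, 1203 and 334. At an unadjusted p under 0.05, 0 were higher and 2 lower in the first of these, beside 10.5% and 9.4% of all genes. In the second, 2 were higher and 1 lower, beside 11.6% of all genes each way. In the last, 1 was higher and 2 lower, beside 6.16% and 4.37% of all genes. Socs3, a feedback inhibitor induced by STAT3, had 11.9, 8.18, 19.5 and 3.98 CPM in MD+CA, 15.6, 20.4, 7.36 and 6.13 CPM in MD, and 9.05, 9.22, 4.65 and 10.6 CPM in CD. Its groups overlapped, with log2 values of 0.55 in MD vs CD, -0.19 in MD+CA vs MD and 0.36 in MD+CA vs CD. Socs2, an inhibitor of growth hormone signalling, averaged 21.9 ± 8.63 CPM in MD+CA, 42.4 ± 14.7 CPM in MD and 47.2 ± 6.20 CPM in CD. Socs2 had a log2 value of -1.11 in MD+CA vs CD (adjusted p = 0.112, edgeR) and -0.95 in MD+CA vs MD (adjusted p = 0.0816, edgeR). Both passed by DESeq2 (adjusted p = 0.0236 and 0.0356). The phosphatase gene Ptprj had a log2 value of -0.87 in MD vs CD (adjusted p = 0.124, edgeR) and 0.91 in MD+CA vs MD (adjusted p = 0.0686, edgeR). By DESeq2 both Ptprj values passed (adjusted p = 0.0374 and 0.0174). Ptpn1, whose product PTP1B removes phosphate from JAK2, averaged 20.7 ± 3.06 CPM in MD+CA and 14.7 ± 0.808 CPM in CD (log2 0.49, adjusted p = 0.261). Cish, a relative of Socs3, had a log2 value of -1.06 in MD vs CD (adjusted p = 0.249).

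Of the 12 tested genes of receptor trafficking and shedding, Leprotl1 was called. Leprotl1, a relative of Leprot, had 11.5, 10.3, 17.3 and 11.8 CPM in MD+CA, against 7.57, 6.41, 6.76 and 7.08 CPM in MD. All MD+CA libraries were above all MD libraries, as for 4.99% of genes. Leprotl1 rose in MD+CA vs MD (log2 0.86, SE 0.21, adjusted p = 0.0415, edgeR). The call was lost without CD library 2, 3 or 4 and without MD library 1, 2 or 4. It was also lost without MD+CA library 2, 3 or 4. Over all 12 runs that left out a library, the adjusted p of Leprotl1 ran from 0.0388 to 0.107 (edgeR). Its log2 value was 0.82 in MD+CA vs CD (adjusted p = 0.0919 by edgeR and 0.0319 by DESeq2), where CD averaged 7.21 ± 1.25 CPM. The sheddase gene Adam17, whose product can release the receptor's outer part, averaged 16.6 ± 5.12 CPM in MD+CA and 11.6 ± 1.47 CPM in MD (log2 0.52, adjusted p = 0.178). Clu, which encodes the leptin-binding plasma protein clusterin, had a log2 value of 0.43 in MD+CA vs CD (adjusted p = 0.748). In MD vs CD the smallest p-values were those of Rnf41, a ubiquitin ligase that lowers cytokine receptors (log2 -0.47, adjusted p = 0.387), and Bbs4, a ciliary transport protein (log2 0.56, adjusted p = 0.298).

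Other class I cytokine receptors, the family of Lepr, were compared with it. Of 18 listed, 13 were tested, with medians of 0.13 in MD vs CD, -0.01 in MD+CA vs MD and 0.03 in MD+CA vs CD. In MD vs CD and MD+CA vs CD, 0 were called by edgeR, where 0.088% and 0.528% of all genes were. At an unadjusted p under 0.05 each had 2 higher, beside 10.5% and 6.16% of all genes, and 0 lower, beside 9.4% and 4.37%. DESeq2 called 1 and 0, beside 638 and 334 of all 13631 genes. Against MD, 1 of 13 was called by edgeR, where 2.71% of all genes were (1.64% lower). This was Il6ra, the receptor chain that binds interleukin-6, which fell in MD+CA (log2 -0.99, SE 0.23, adjusted p = 0.0342, edgeR). It had 29.2, 28.8, 38.7 and 23.7 CPM in MD+CA, against 43.7, 52.7, 73.7 and 69.5 CPM in MD. These groups did not overlap, in the lower direction as for 5.21% of genes. The call was lost without any 1 of CD libraries 1 and 3, MD libraries 2 and 4 and MD+CA libraries 2 and 4. In MD vs CD, Il6ra had a positive log2 value, 0.80 (adjusted p = 0.117 by edgeR and 0.0335 by DESeq2), where that of Lepr was negative. Csf3r, the receptor of the granulocyte growth factor G-CSF, had 1.30 in MD vs CD and 1.13 in MD+CA vs CD (adjusted p = 0.167 and 0.393). Cntfr had -1.83 in MD+CA vs MD (adjusted p = 0.0596 by edgeR and 0.0133 by DESeq2). Il2rg, a receptor chain of lymphocytes, had 1.18 in MD+CA vs CD (adjusted p = 0.204, edgeR).

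Target genes of STAT3 in liver were taken as a readout of cytokine receptors that use STAT3, of which the leptin receptor is 1 of several. Of 20 tested, 0 were called in MD vs CD by edgeR, where 0.088% of all genes were, and the median was 0.56. At an unadjusted p under 0.05, 4 were higher and 2 lower, beside 10.5% and 9.4% of all genes. DESeq2 called 2, beside 638 of all 13631 genes. In MD+CA vs MD, 0 rose and 2 fell by edgeR, where 1.06% of all genes rose and 1.64% fell. DESeq2 called 5 higher and 3 lower, beside 591 and 612 of all 13631 genes. The median there was 1.05, with 11 genes higher and 3 lower at an unadjusted p under 0.05, beside 11.6% of all genes each way. In MD+CA vs CD, 1 rose and 0 fell by edgeR, where 0.22% of all genes rose and 0.308% fell. DESeq2 called 1 higher and 1 lower, beside 182 and 152 of all genes. The median was 0.58, with 8 higher and 3 lower at an unadjusted p under 0.05, beside 6.16% and 4.37% of all genes. The 2 that fell against MD, Pim3 and Junb, are also rapid response genes of other stimuli. Pim3 had 19.7, 12.9, 5.95 and 9.60 CPM in MD+CA, against 111, 163, 49.6 and 51.7 CPM in MD (log2 -2.95, SE 0.53, adjusted p = 0.0171, edgeR). Junb had 14.2, 11.7, 13.9 and 10.1 CPM in MD+CA, against 152, 226, 60.8 and 21.7 CPM in MD (log2 -3.20, SE 0.65, adjusted p = 0.0208, edgeR). In MD vs CD, Junb had a log2 value of 2.08 (adjusted p = 0.121). The call of Junb in MD+CA vs MD was lost without any 1 of MD libraries 1 and 2 and MD+CA libraries 2, 3 and 4. The acute phase gene Saa3 rose in MD+CA vs CD, with 6.24 ± 1.34 CPM in MD+CA and 1.15 ± 0.536 CPM in CD (log2 2.46, adjusted p = 0.00902, edgeR). Its log2 value in MD vs CD was 1.42 (adjusted p = 0.107 by edgeR and 0.0144 by DESeq2). Saa2, another acute phase gene, reached 14000 CPM in MD+CA library 3, against 34.4 to 112 CPM in the other 3 MD+CA libraries (log2 7.85 in MD+CA vs CD, adjusted p = 0.0539). That library also had the most Lepr of its group.

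Genes of fasting, a state in which liver Lepr is known to be raised in mice, were compared because feeding before collection is not described in the labels. Of 24 tested, 0 were called in MD vs CD by edgeR, where 0.088% of all genes were, and the median was 0.26. At an unadjusted p under 0.05, 2 were higher and 0 lower, beside 10.5% and 9.4% of all genes. DESeq2 called 1, beside 638 of all 13631 genes. Fgf21, a fasting hormone of the liver, averaged 5.85 ± 2.25 CPM in MD and 2.38 ± 1.03 CPM in CD. Its log2 value was 1.28 (adjusted p = 0.115 by edgeR and 0.0241 by DESeq2). Against MD, 0 rose and 3 fell in MD+CA by edgeR, where 1.64% of all genes fell, and the median was -0.64. DESeq2 called 7 lower, beside 612 of all 13631 genes. At an unadjusted p under 0.05, 12 were lower, beside 11.6% of all genes. The 3 were Angptl4, an inhibitor of lipoprotein lipase (log2 -1.80, adjusted p = 0.0288), Txnip, a glucose-responsive regulator of glucose uptake (log2 -2.05, adjusted p = 0.0320), and Gadd45b, a stress response gene (log2 -1.58, adjusted p = 0.0492), all by edgeR. The call of Angptl4 was lost without any 1 of MD libraries 1 and 4 and MD+CA libraries 2 and 3, and that of Txnip without any 1 of MD libraries 1 and 2 and MD+CA libraries 2 and 3. The call of Gadd45b was lost in 10 of the 12 runs and held without MD library 4 and without MD+CA library 1. Against CD, 0 were called in MD+CA by edgeR, where 0.528% of all genes were, and the median was -0.31. At an unadjusted p under 0.05, 0 were higher and 5 lower (20.8% of the 24), beside 6.16% and 4.37% of all genes. DESeq2 called 2, beside 334 of all 13631 genes. Txnip had -1.78 and Angptl4 -1.37 there (adjusted p = 0.0919 and 0.134, edgeR); both passed by DESeq2. The relation of these genes to Lepr was not tested.

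Clock genes also moved with MD+CA, and the labels give no hour of collection. Of 19 tested, 0 were called in MD vs CD by edgeR, where 0.088% of all genes were. At an unadjusted p under 0.05, 1 was higher and 1 lower, beside 10.5% and 9.4% of all genes. DESeq2 called 1, beside 638 of all 13631 genes. The 2 smallest p-values there by edgeR were those of Ciart (log2 1.45, adjusted p = 0.131) and the repressor gene Cry2 (log2 -0.65, adjusted p = 0.201). Ciart passed there by DESeq2 (adjusted p = 0.0424). Against MD, 1 rose and 9 fell in MD+CA by edgeR, where 1.06% of all genes rose and 1.64% fell. DESeq2 called 2 higher and 10 lower, beside 591 and 612 of all genes. Against CD, 1 rose and 4 fell in MD+CA by edgeR, where 0.22% of all genes rose and 0.308% fell. DESeq2 called 3 higher and 5 lower, beside 182 and 152 of all genes. Bmal1, an activator of the clock, had 17.1, 8.76, 14.6 and 10.2 CPM in MD+CA, against 1.33, 1.93, 1.13 and 0.716 CPM in MD and 2.70, 1.62, 2.41 and 0.765 CPM in CD. It rose in MD+CA vs MD (log2 3.31, adjusted p = 0.00136) and in MD+CA vs CD (log2 2.75, adjusted p = 0.00783, both edgeR). Per3, a clock repressor, averaged 5.51 ± 4.44 CPM in MD+CA, 66.0 ± 16.7 CPM in MD and 41.5 ± 9.16 CPM in CD, and fell in MD+CA vs MD and vs CD (log2 -3.56 and -2.89, adjusted p = 0.00136 and 0.00902, edgeR). Ciart, another repressor, and Tef, an output factor, fell in MD+CA vs MD (log2 -4.35 and -2.27, adjusted p = 0.00162 and 0.00350). Dbp, also an output factor, and Tef fell in MD+CA vs CD (log2 -3.23 and -1.67, adjusted p = 0.0307 and 0.0315); both calls were lost without any 1 of CD libraries 1, 2 and 4 and MD+CA libraries 1 and 2. Ciart, named here after its value was seen, was the other gene that fell in MD+CA vs CD (log2 -2.90, adjusted p = 0.0315); its call was lost without any 1 of CD libraries 1 and 4 and MD+CA libraries 1, 2 and 3. The hour of collection and the treatment cannot be told apart for Lepr in MD+CA. For MD vs CD, the part of the hour of collection in the level of Lepr was not tested.

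Markers of other liver cells were counted because they could shift the share of cells that carry Lepr. Kupffer cell markers, of resident liver macrophages, summed to 382 to 765 CPM in MD+CA, 183 to 304 CPM in MD and 230 to 287 CPM in CD. Of 10 tested, 5 rose in MD+CA vs MD by edgeR, where 1.06% of all genes rose. DESeq2 called 9 higher, beside 591 of all 13631 genes. Against CD, 4 rose in MD+CA by edgeR, where 0.22% of all genes rose. DESeq2 called 10 higher, beside 182 of all genes. All 10 were higher at an unadjusted p under 0.05 in both, beside 11.6% of all genes in the first and 6.16% in the second. In MD vs CD, 0 were called by edgeR, 0 by DESeq2 and 0 had an unadjusted p under 0.05. Against MD, Cd5l (log2 1.64, adjusted p = 0.0105) and Csf1r (log2 1.01, adjusted p = 0.0171) held without any 1 library. Marco (log2 3.12, adjusted p = 0.0198) lost its call without any 1 of MD libraries 1, 2 and 4 and MD+CA library 2, and C1qa (log2 1.04, adjusted p = 0.0245) without any 1 of MD library 1 and MD+CA libraries 2 and 3. Vsig4, named after its value was seen (log2 1.06, adjusted p = 0.0424), kept its call only without MD library 3 and without MD+CA library 1. All adjusted p are from edgeR. Against CD the 4 calls (Marco, C1qb, Csf1r and Cd5l) were each lost in 6 to 9 of the 12 runs that left out a library. The part of macrophage RNA in the level of Lepr was not tested.

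No marker of hepatocytes, sinusoidal endothelial cells, stellate cells, bile duct cells, fat cells or lymphocytes was called in any comparison by edgeR. Of the 40 tested, 10 were higher and 2 lower at an unadjusted p under 0.05 in MD vs CD, which is 25% and 5%, beside 10.5% and 9.4% of all genes. In MD+CA vs MD, 4 were higher and 6 lower, which is 10% and 15%, beside 11.6% of all genes each way. In MD+CA vs CD, 3 were higher and 0 lower, beside 6.16% and 4.37% of all genes. DESeq2 called 3 in the first of these comparisons, 3 in the second and 0 in the last. Of all 13631 genes it called 638, 1203 and 334. Sinusoidal endothelial markers summed to 87.3 to 165 CPM in MD+CA, 143 to 212 CPM in MD and 119 to 158 CPM in CD. Stellate cell markers summed to 205 to 424 CPM in MD+CA, 269 to 347 CPM in MD and 178 to 256 CPM in CD. Bile duct markers summed to 86.5 to 178 CPM in MD+CA, 99.9 to 148 CPM in MD and 73.6 to 142 CPM in CD. Lymphocyte markers summed to 2.91 to 6.79 CPM in MD+CA, 1.27 to 4.07 CPM in MD and 3.17 to 4.10 CPM in CD.

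The genes whose levels ran most closely with Lepr were sought among 10667 protein-coding genes with a mean log2 CPM of at least 1, by Pearson correlation of log2 CPM over the 12 libraries. These are descriptions: the libraries share 3 groups, and the group differences enter the values. The highest was Ces3b, a liver carboxylesterase, with r = 0.90 and a Spearman rho of 0.94. It averaged 97.7 ± 19.7 CPM in MD+CA, 118 ± 17.2 CPM in MD and 189 ± 30.8 CPM in CD (SD, n = 4 each), the same order as Lepr. The CD mean was 1.94 times the MD+CA mean for Ces3b and 9.93 times for Lepr. Next came Tmem63b (r = 0.87), Rsl1d1 (0.87), Epha1 (0.86), Adam11 (0.86) and Brap (0.84). Adam11 had the largest ratio of the CD mean to the MD+CA mean of these 5, 4.91, with 2.19 ± 1.20 CPM in MD+CA, 3.65 ± 1.90 CPM in MD and 10.8 ± 4.12 CPM in CD. Within groups, after the group means were taken out, r was 0.58 for Ces3b, 0.75 for Rsl1d1 and 0.19 for Epha1, the lowest of the 6; the choice of genes used the same libraries.

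The lowest correlations were those of 4 genes expressed in myeloid cells: Ly86 (r = -0.94), Sirpa (-0.92), Nckap1l (-0.92) and Irf8 (-0.91). Ly86 had 5.33, 8.02, 4.81 and 3.63 CPM in MD+CA, 4.34, 4.48, 4.13 and 4.22 CPM in MD, and 2.84, 3.04, 2.5 and 2.29 CPM in CD. Every MD+CA and MD library was above every CD library for Ly86, as for 3.48% of genes in MD+CA vs CD and 5.99% in MD vs CD. Sirpa averaged 35.9 ± 9.0 CPM in MD+CA, 27.3 ± 2.34 CPM in MD and 17.6 ± 1.91 CPM in CD, and Irf8 averaged 10.1 ± 1.41, 8.26 ± 1.22 and 5.74 ± 0.861 CPM in the same groups. Within groups, r was -0.77 for Ly86, -0.65 for Sirpa, -0.64 for Nckap1l and -0.60 for Irf8. These genes were picked by r over the same libraries, which holds the within-group part, so nothing is read from these values. The part of myeloid cell RNA in the level of Lepr was not tested.

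**Figure D5:**
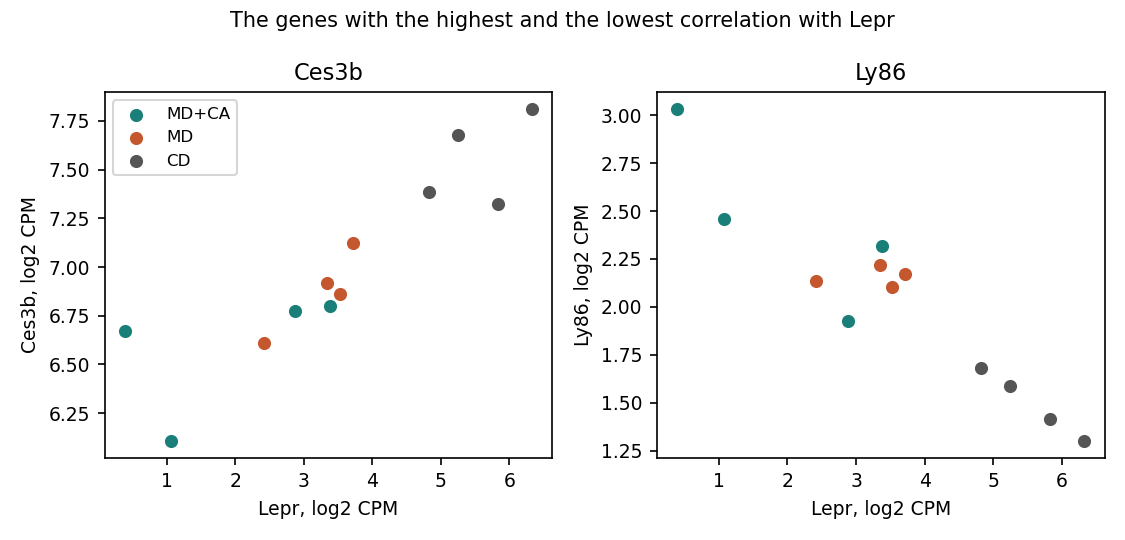
Log2 CPM of Ces3b (left) and Ly86 (right) against log2 CPM of Lepr, 1 dot per library, coloured by group (MD+CA, MD and CD). Ces3b increases with Lepr (r = 0.90) and Ly86 decreases (r = -0.94) over the 12 libraries.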

How the data were processed

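Liver RNA selected for poly(A) was sequenced from 12 libraries, per the labels' protocols. Tools named by the submitters' processing notes are fastp, Salmon 1.10.3 and DESeq2, with build GRCm39; which annotation and strand setting were used is not given in the sources at hand. The deposited tables give estimated counts and TPM per transcript, per the file headers. Each gene's expected counts were added up and rounded. Genes were filtered with filterByExpr (minimum count 10), leaving 13631, and scaled by TMM. Contrasts came from edgeR 4.0.16 (quasi-likelihood, 1 mean per group, all 12 libraries), Benjamini-Hochberg adjusted over all genes, with a threshold of 0.05 (R 4.3.3; Python 3.11.15). The model was tested on simulated data. Alternatives were RLE scaling, DESeq2 1.42.0, no filter, a length offset, a replicate block, 2 groups only and each library left out. The gene and the lists were chosen with earlier results of these data known. The text names Lepr transcripts with at least 1% of its reads (others were named after their values were seen); list members called, at most 4 by smallest p, or, with under 2 called, the 2 with the smallest p (of marker lists only those called, beside Lep, Adipoq and Plin1); Lep, Leprot, Jak2, Stat3 and Socs3; and the 6 genes most and 4 least like Lepr. Intervals on reads, shares and the ratio of reads, and floors of 3 reads, cover counting error only. Intervals of log2 fold changes come from the edgeR SE taken as normal, and can be narrower than the test implies. Some list members are not reported here and are outside the list counts.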

Additional observations from a re-analysis of the deposited data

Results flagged for a closer look

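In 11 of 135 groups of 4 libraries examined, 1 library stood apart from the other 3 by Dixon's criterion at the 95% level. Chance does so in about 1 in 20 groups of normal values. That rate does not hold for genes with ties at 0, so the count is not set against it. Only 1 library of MD+CA and 1 of MD had Lep reads, so Lep met the criterion there whatever its level. Adipoq and Plin1 are not in the count. In MD+CA these were the Lepr-203 share of 82.0% in library 2, Lep at 5.01 CPM in library 4 and Saa2 at 14000 CPM in library 3. In MD they were Lepr-201 at 0.586 CPM in library 2, Csf1r at 8.34 CPM in library 1 (lowest), Lep at 0.601 CPM and Marco at 31.5 CPM in library 3, and Per3 at 91.1 CPM in library 2. In CD the lowest libraries stood apart for C1qb (9.22 CPM, library 2), Gadd45b (1.11 CPM, library 2) and Leprotl1 (5.34 CPM, library 1). Lep was outside the tested genes, with 58 reads in MD+CA library 4 and 8 reads in MD library 3, above the 0 reads of all CD libraries.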

How the results depend on the processing

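Lepr stayed lower in every comparison under every alternative run. These runs reuse the libraries by which the gene was chosen, so they describe the effect of processing only. Leaving out a library gave log2 values of -2.57 to -2.06 in MD vs CD, -1.53 to -0.63 in MD+CA vs MD and -3.91 to -2.99 in MD+CA vs CD. The Lepr-203 share then ran from 93.5% to 99.5% in MD+CA, 93.9% to 98.2% in MD and 96.1% to 97.7% in CD, and in TPM it was 80.0%, 80.4% and 87.2%. Counts of genes called were 12 in MD vs CD, 369 in MD+CA vs MD and 72 in MD+CA vs CD; in that order they became 638, 1203 and 334 with DESeq2, 481, 1017 and 390 with no filter, 2, 197 and 34 with the length offset, 35, 99 and 46 with 2 groups, and 2, 204 and 294 without both MD library 2 and MD+CA library 4 (chosen after seeing the data). Leaving out single libraries gave 0 to 26, 109 to 963 and 17 to 169. Leptin pathway calls, 0, 1 and 0, became 4, 5 and 2 with DESeq2 and 3, 3 and 2 with no filter. In MD+CA vs MD they became 0 with 2 groups and 0 without both libraries, and ran from 0 to 3 without single libraries, against 0 to 0 in the other comparisons. Of the named differences, 16 passed by DESeq2 and not by edgeR, and 0 by edgeR and not by DESeq2 where DESeq2 gave an adjusted p. The cause was not tested. Same-numbered libraries had correlated deviations of -0.079 to 0.35, positive in 11 of 12 pairs and over 0.1 in 8, and in 16 of 24 cases (each library against each other group) a library correlated best with its own number; since not every pair exceeded 0.1, the numbers were not taken as pairs, and whether they mark a shared origin is not given by the labels. With the number as a replicate block, 664 genes were called in MD+CA vs MD and 154 in MD+CA vs CD, pathway calls were 3 and 1, Foxo1 and Socs2 passed in MD+CA vs MD (adjusted p = 0.0305 and 0.0482, edgeR), Socs2 and Angptl4 passed in MD+CA vs CD (0.0461 and 0.0473), and Lepr was at -2.19 in MD vs CD, -1.29 in MD+CA vs MD and -3.48 in MD+CA vs CD. Values near 0 changed sign, with the ranges over left-out libraries as follows: Jak2 -0.022 to 0.26 in MD+CA vs CD; Leprot -0.21 to 0.057 in MD vs CD, -0.18 to 0.094 in MD+CA vs MD and -0.21 to 0.0037 in MD+CA vs CD; Socs3 -0.62 to 0.15 in MD+CA vs MD and -0.081 to 0.64 in MD+CA vs CD; Stat3 -0.13 to 0.15 in MD vs CD. Stat3 in MD vs CD was -0.0035 with RLE and with DESeq2, -0.035 with no filter, -0.071 with the offset, -0.011 with the block and -0.15 without both libraries. Without both libraries, Jak2 in MD+CA vs CD was -0.020, Leprot 0.044 in MD vs CD and 0.0044 in MD+CA vs CD, and Socs3 0.45 in MD+CA vs MD. With 14 to 83 Lepr reads in MD+CA, depth limits the transcript shares there most.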
